A study of Mus musculus with 12 samples.

Results

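The mitochondrial carrier family Slc25 was followed in mouse liver across 2 genotypes and 2 diets. Members were the probe sets with exactly 1 annotated symbol starting with Slc25a, and where a gene had several the brightest on average over the 12 arrays stood for it. This gave 33 genes from 65 probe sets, of 12393 genes in all, and 15 of the 33 had several probe sets. Of the 33 genes, 28 had a mean above that of the lowest 40% of all probe sets; Slc25a2, Slc25a24, Slc25a35, Slc25a36 and Slc25a53 did not.

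Carriers of this family sit mostly in the inner mitochondrial membrane and exchange metabolites, nucleotides, phosphate and cofactors between the cytosol and the matrix. They are built from repeated pairs of membrane helices. In liver they link the cytosolic and matrix steps of the urea cycle, carry reducing equivalents in the malate-aspartate shuttle, bring acylcarnitines to beta-oxidation and supply ADP and phosphate to ATP synthase.

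Total RNA from whole liver was hybridised to 12 Affymetrix 430A arrays, each carrying RNA pooled from 3 male mice aged 6 to 8 weeks, with 3 arrays in each of 4 groups. Wild-type C57BL/6 mice and mice null for cytochrome P450 reductase (POR, which passes electrons to microsomal cytochromes P450), whose strain the labels also give as C57BL/6, were kept for 14 days on powdered RM3 feed without soya. For the last 24 h they ate the same feed (control) or that feed containing the flavonol quercetin at 6.2 g per kg, stated also as 7 mg per mouse. The labels do not say in which cells POR was lost or whether the wild-type mice were littermates, and Por itself was not analysed here. Any difference in background between the strains therefore cannot be told apart from the loss of POR.

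Values are log2 expression per probe set, and differences are differences of group means with the moderated standard error (SE) of limma's test. A gene passed where its adjusted p (Benjamini-Hochberg over 22626 probe sets) was under 0.05. For a pairwise contrast the 95% interval was typically ±0.24 log2 units (median of the 33 genes), a precision limited by how many arrays there were. Arrays of a group correlated at r = 0.988 to 0.993. On the second principal component (12.4% of the variance) wild-type control array 1 scored 12.1, while arrays 2 and 3 of its group scored -17.7 and -16.2. The 3′ minus 5′ difference of control probe sets is a sign of RNA integrity. For the transferrin receptor on the control diet it was 0.99 to 1.13 in wild-type and 1.17 to 1.34 in POR-null arrays. For Gapdh on that diet it was -0.213 to -0.17 in wild type and -0.155 to -0.141 in POR-null. Neither overlapped between genotypes there, but both did on the quercetin diet. The difference for pyruvate carboxylase on the quercetin diet was higher in wild type (2.17 to 2.57) than in POR-null (1.90 to 2.14). It overlapped on the control diet. That of actin overlapped on both diets (0.79 to 1.02 over all arrays). The part of these control differences in the genotype results was not tested. The mean of 6 hepatocyte markers (Alb, Apoa1, Ttr, Serpina1c, Fabp1 and Hnf4a) was 12.87 to 12.98 in wild-type control and 12.72 to 12.89 in POR-null control arrays. With quercetin it was 12.88 to 12.94 in wild type and 12.60 to 12.74 in POR-null, with no overlap. The median of all probe sets lay between 5.93 and 5.99.

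Averaged over both diets, 4 carriers differed between POR-null and wild-type liver. Slc25a47, a liver-enriched carrier also known as HDMCP, rose by 0.53 ± 0.08 (SE, 6 arrays per genotype, adjusted p = 0.00131). Slc25a45, whose substrate has long been unassigned, rose by 0.44 ± 0.07 (adjusted p = 0.00211), and the dicarboxylate carrier Slc25a10 by 0.39 ± 0.08 (adjusted p = 0.0125). Slc25a30, a carrier of the uncoupling protein-like branch, fell by 0.62 on the log2 scale (SE 0.13, adjusted p = 0.0109). The 3 genes that rose are read against 5.08% of all genes called higher in this comparison, and the 1 that fell against 2.86% called lower. In either direction 4 of 33 carriers passed against 7.94% of all genes.

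The promoter windows of these 4 genes are shown because they are the members that passed a test. The sequences come from RefSeq (GRCm38.p6) and run from 250 bases before to 50 bases after the annotated start used by that table, which for Slc25a47 and Slc25a45 lies inside the gene's outermost annotated span. Capitals mark every match, on either strand, to the nuclear receptor hexamer AGGTCA (or TGACCT), the E-box CACGTG, the GC box GGGCGG (or CCGCCC) and the CCAAT box CCAAT (or ATTGG).
Slc25a47 chr12:108850879-108851178 (plus strand): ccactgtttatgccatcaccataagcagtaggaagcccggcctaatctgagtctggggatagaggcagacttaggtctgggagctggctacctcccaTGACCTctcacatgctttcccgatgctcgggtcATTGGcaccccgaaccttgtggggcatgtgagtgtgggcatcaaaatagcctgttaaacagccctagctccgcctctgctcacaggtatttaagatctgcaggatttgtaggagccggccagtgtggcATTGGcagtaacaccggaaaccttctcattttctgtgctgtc
Slc25a45 chr19:5877572-5877871 (plus strand): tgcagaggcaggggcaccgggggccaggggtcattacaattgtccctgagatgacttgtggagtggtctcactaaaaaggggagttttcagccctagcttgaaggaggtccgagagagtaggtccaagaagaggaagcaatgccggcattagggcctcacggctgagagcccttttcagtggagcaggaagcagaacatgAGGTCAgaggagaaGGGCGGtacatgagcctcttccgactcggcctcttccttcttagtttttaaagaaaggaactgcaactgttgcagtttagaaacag
Slc25a10 chr11:120491587-120491886 (plus strand): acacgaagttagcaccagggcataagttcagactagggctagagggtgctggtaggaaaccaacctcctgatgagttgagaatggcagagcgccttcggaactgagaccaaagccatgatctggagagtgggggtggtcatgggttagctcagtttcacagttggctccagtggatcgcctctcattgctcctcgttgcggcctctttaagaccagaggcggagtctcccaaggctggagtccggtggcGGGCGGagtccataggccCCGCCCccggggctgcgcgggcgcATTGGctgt
Slc25a30 chr14:75786988-75787287 (minus strand): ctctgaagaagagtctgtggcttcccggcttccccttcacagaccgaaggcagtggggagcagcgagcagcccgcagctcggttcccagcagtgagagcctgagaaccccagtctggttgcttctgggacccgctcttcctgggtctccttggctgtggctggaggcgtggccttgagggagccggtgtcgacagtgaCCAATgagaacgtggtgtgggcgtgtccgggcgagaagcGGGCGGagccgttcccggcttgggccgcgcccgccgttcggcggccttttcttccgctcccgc

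The windows of Slc25a47 and Slc25a45 each held 1 match to AGGTCA, starting 153 and 50 bases before the start, while those of Slc25a10 and Slc25a30 held 0. This hexamer is found in 16.3% of all 32851 promoter windows of the same length, and in those of 3 of the 26 carriers with a window. GGGCGG was found in Slc25a10 (2 matches), Slc25a30 (1) and Slc25a45 (1), not in Slc25a47. It is held by 35.7% of all windows and 24 of the 26 carriers. CCAAT was found in Slc25a47 (2 matches), Slc25a10 (1) and Slc25a30 (1), against 37.4% of all windows and 16 of the 26 carriers. CACGTG was in none of the 4 windows, against 7.15% of all windows and 5 of the 26 carriers. A carrier was counted if any of its windows held the motif, so these counts are per gene and the shares per window. No pair of these motifs overlapped in the 4 windows. These are matches of letters, and they do not show that a factor binds.

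**Figure D1:**
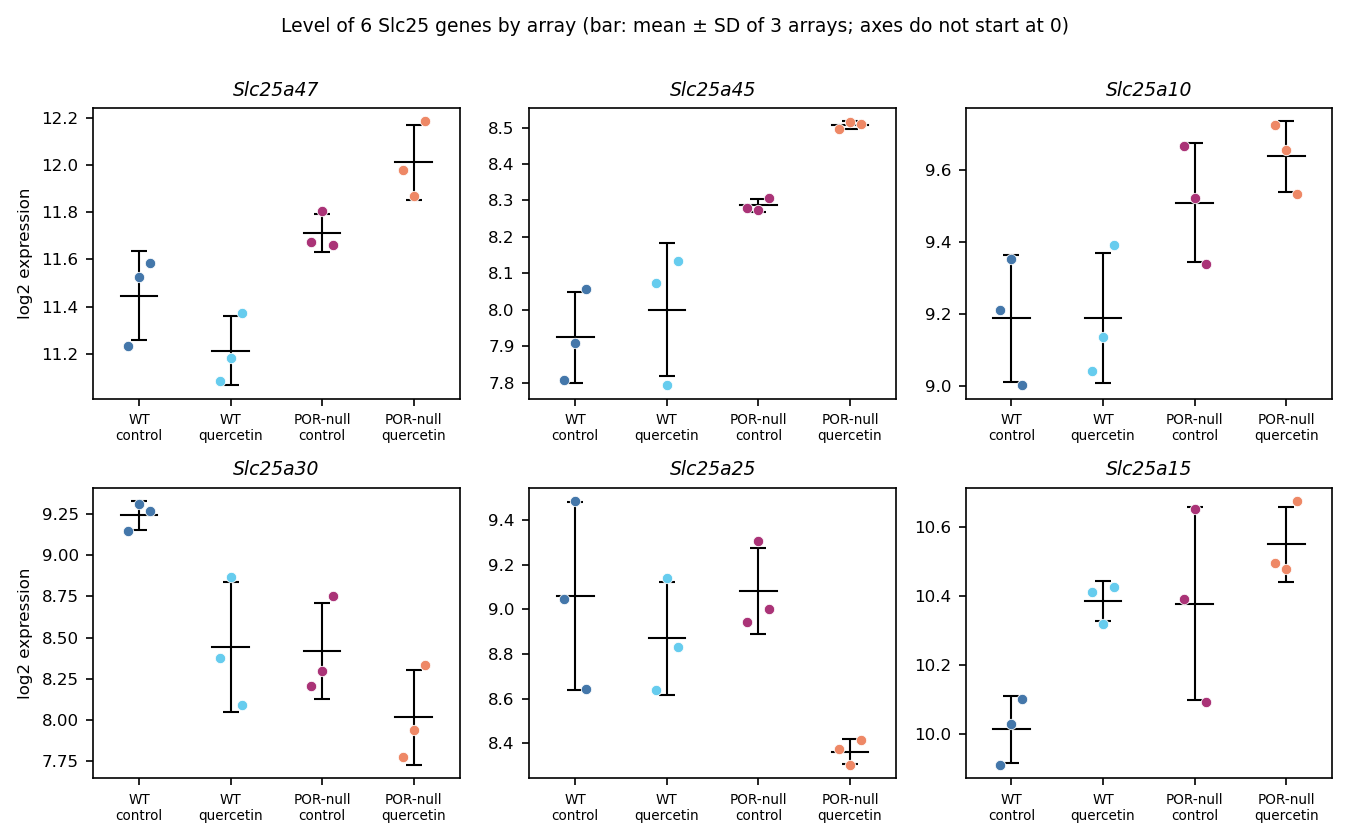
Log2 expression (vertical axes, which do not start at 0) of 6 carriers in the 4 groups; points are single arrays, and bars give the mean and SD of 3 arrays. The POR-null quercetin arrays are the highest for Slc25a45 (8.49 to 8.51) and the lowest for Slc25a25 (8.30 to 8.41), and the wild-type control arrays are the highest for Slc25a30 (9.14 to 9.31).

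Slc25a47 measured 11.23, 11.52 and 11.58 in the wild-type control arrays and 11.08, 11.18 and 11.37 in the wild-type quercetin arrays. In POR-null liver it measured 11.67, 11.80 and 11.66 on the control diet and 11.98, 11.87 and 12.18 with quercetin. Every POR-null array lay above every wild-type array. On the quercetin diet the gene rose by 0.80 ± 0.11 in POR-null (1.74-fold, adjusted p = 0.00289), while on the control diet the difference of 0.27 ± 0.11 did not pass (adjusted p = 0.263). Quercetin went with a lower mean in wild type (-0.23 ± 0.11) and a higher mean in POR-null (0.30 ± 0.11). The difference between those responses was 0.53 ± 0.16, with a 95% interval of 0.19 to 0.87, and did not pass (adjusted p = 0.798). The probe set is of the Affymetrix _s_at kind, which can detect more than 1 transcript, and it is the gene's only probe set.

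Slc25a45 measured 7.81, 7.91 and 8.06 in wild-type control and 8.07, 7.79 and 8.13 in wild-type quercetin arrays. Its POR-null values were 8.28, 8.27 and 8.31 on the control diet and 8.49, 8.51 and 8.51 with quercetin. The genotypes did not overlap on either diet, and the POR-null arrays of each diet lay close together. On the quercetin diet Slc25a45 rose by 0.51 ± 0.10 (1.42-fold, adjusted p = 0.0162), and on the control diet the difference was 0.36 ± 0.10 (adjusted p = 0.0941). The quercetin-diet call was lost without wild-type quercetin array 2 (0.40, adjusted p = 0.0843), POR-null quercetin array 1 (0.51, adjusted p = 0.07) or POR-null quercetin array 2 (0.50, adjusted p = 0.0681). On that diet 2 of 33 carriers passed, both higher, against 2.49% of all genes called (1.86% higher and 0.629% lower), and without any of those 3 arrays Slc25a47 alone passed.

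Slc25a10 exchanges malate or succinate for phosphate and is abundant in liver and fat. It measured 9.21, 9.35 and 9.00 in wild-type control, 9.04, 9.14 and 9.39 in wild-type quercetin, 9.67, 9.52 and 9.34 in POR-null control and 9.72, 9.66 and 9.53 in POR-null quercetin arrays. The genotypes overlapped on the control diet, where POR-null control array 3 (9.34) lay just under the highest wild-type array (9.35), and not on the quercetin diet. The differences were 0.32 ± 0.12 (adjusted p = 0.202) and 0.45 ± 0.12 (adjusted p = 0.0635). Its other probe set gave 0.33 ± 0.09 averaged over the diets and passed too (adjusted p = 0.0326). The oxoglutarate-malate carrier Slc25a11, the other carrier of dicarboxylates measured, differed by 0.19 ± 0.07 averaged over the diets (adjusted p = 0.117). Slc25a1, a carrier of the same substrate group and of the named set of liver carriers, was not among the 33 genes.

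Slc25a30 was high only in the wild-type control arrays, at 9.14, 9.31 and 9.26. It measured 8.38, 8.87 and 8.09 in wild-type quercetin, 8.21, 8.30 and 8.75 in POR-null control, and 7.78, 7.94 and 8.34 in POR-null quercetin arrays. The wild-type control arrays did not overlap with those of the 3 other groups, which overlapped among themselves. On the control diet the genotype difference of -0.82 ± 0.19 missed the threshold (adjusted p = 0.0512), as did that on the quercetin diet (-0.43 ± 0.19, adjusted p = 0.265). In wild type the quercetin difference was -0.80 ± 0.19 (adjusted p = 0.316), and in POR-null it was -0.40 ± 0.19. The wild-type quercetin contrast and the control-diet genotype contrast share the wild-type control arrays, so these values are not independent. On the control diet the gene passed without wild-type control array 1 (-0.87, adjusted p = 0.0418) or POR-null control array 3 (-0.99, adjusted p = 0.0178), and across all 14 alternatives its adjusted p ran from 0.0178 to 0.236.

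Of the 5 probe sets of Slc25a30, 4 passed in the genotype contrast averaged over diets, with differences of -0.62 for the representative probe set and -0.78, -0.75 and -0.49 for the next ones in order of mean level. The fifth had values between 4.32 and 4.72 and differed by -0.06 ± 0.07 (adjusted p = 0.656). In the same order, the differences with quercetin in wild type were -0.80, -0.69, -0.77, -0.36 and -0.13. None of the quercetin values passed.

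**Figure D2:**
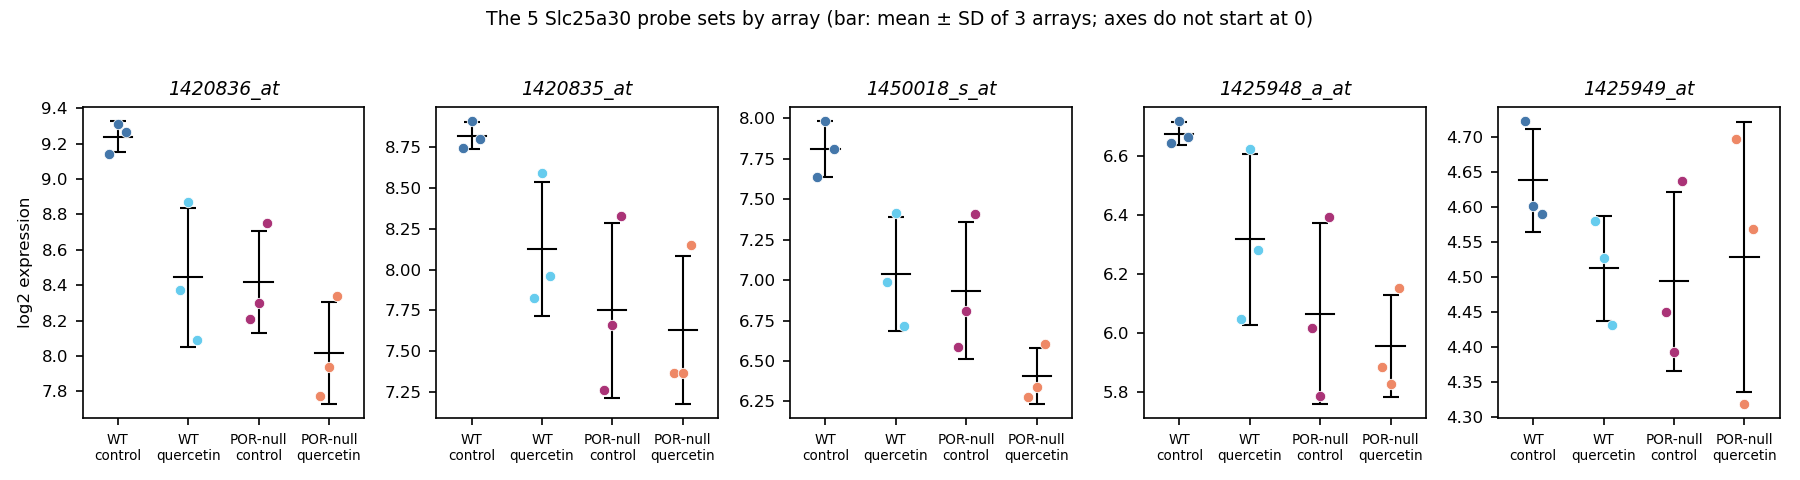
Log2 expression (vertical axes, which do not start at 0) of the 5 probe sets of Slc25a30 in the 4 groups; points are single arrays, and bars give the mean and SD of 3 arrays. In the first 4 panels the wild-type control arrays are the highest; in the last panel, at 4.32 to 4.72, they overlap with the POR-null arrays.

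On the control diet 0 of 33 carriers passed by limma, against 1.24% of all genes, and 9 had an unadjusted p under 0.05, against 15.8% of all genes. The count over all 22626 probe sets moved with single arrays: it was 262, and leaving out 1 array gave 35 (POR-null control array 1) to 756 (wild-type control array 1). On the quercetin diet it went from 527 to between 127 and 389 without any 1 array. Groups did not overlap for 7 carriers, against 17.8% of all genes. On the quercetin diet they did not overlap for 13 carriers (9 higher and 4 lower in POR-null), against 25.7% of all genes. The median difference over the 33 carriers was 0.02 on the control diet and 0.04 on the quercetin diet, beside -0.02 and -0.03 over all genes. Those contrasts share no arrays. Across the 33 genes Pearson's r of their differences was 0.68 and Spearman's rho 0.71, and 22 genes (66.7%) had 1 sign in both, beside r = 0.59 and 63.8% over all genes. Genes of a list are not independent replicates.

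**Figure D3:**
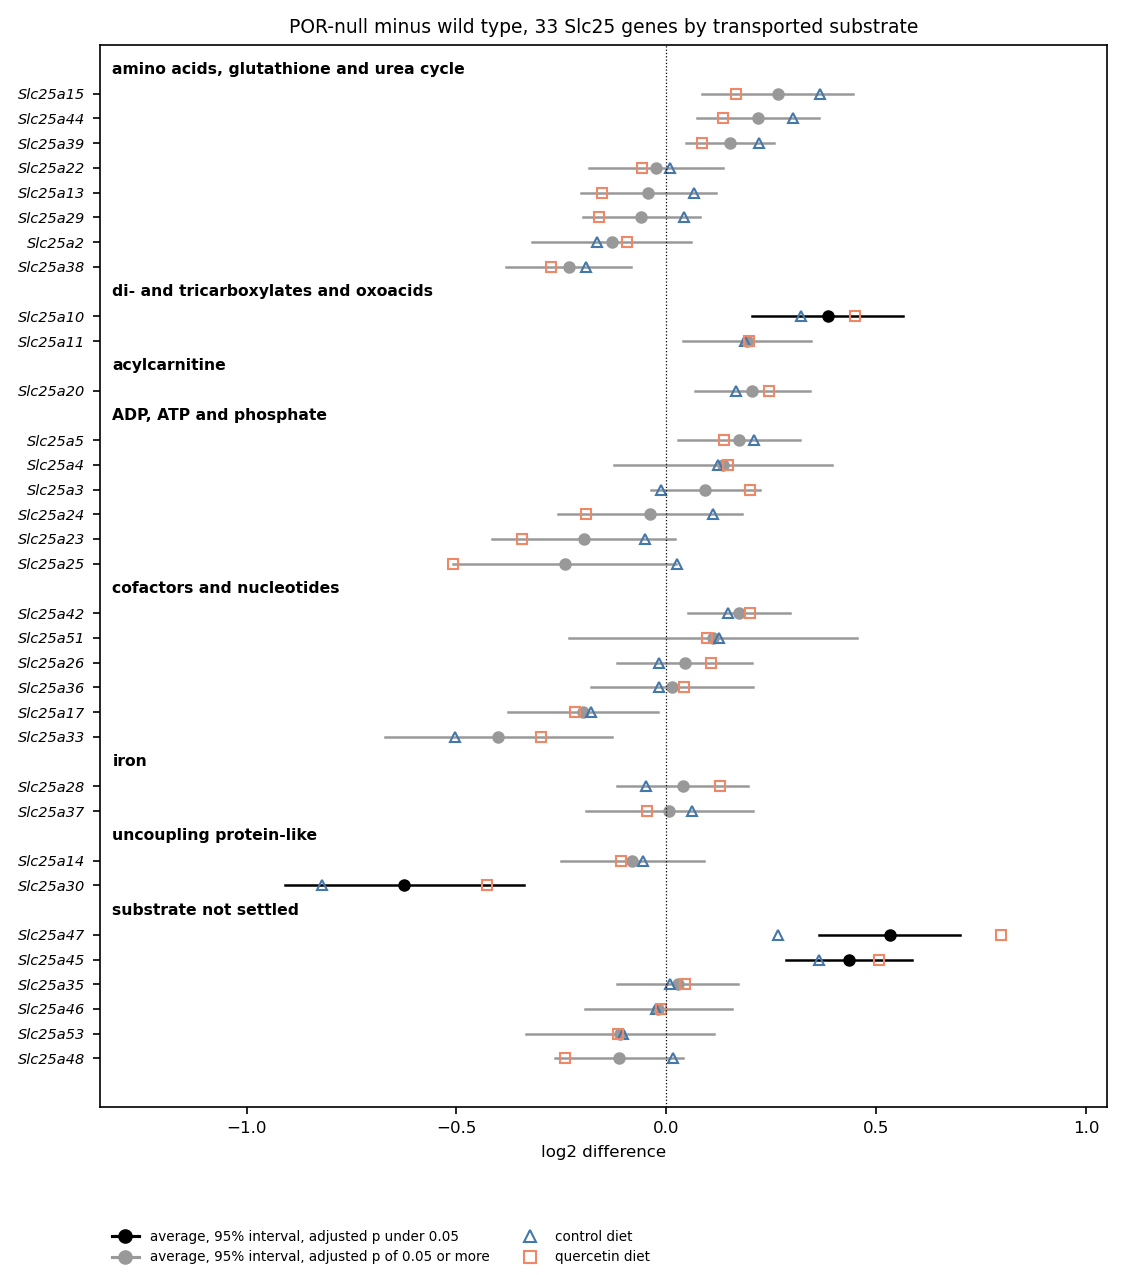
POR-null minus wild type as a log2 difference (horizontal axis) for the 33 carriers, grouped by transported substrate; circles with bars give the average over diets with its 95% interval, triangles the control diet and squares the quercetin diet. The 4 black circles, Slc25a47, Slc25a45, Slc25a10 and Slc25a30, passed; the other 29 intervals are grey.

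Among carriers of amino acids and glutathione and those of the urea cycle, 0 of 8 passed for genotype, and 3 of 8 lay above 0 averaged over the diets (median -0.03). With the lowest 40% of probe sets left out, Slc25a38, Slc25a39 and Slc25a44 passed averaged over the diets. Slc25a15, the ornithine carrier that brings ornithine to the matrix for the urea cycle, measured 9.91, 10.03 and 10.10 in wild-type control and 10.41, 10.32 and 10.43 in wild-type quercetin arrays. It measured 10.39, 10.65 and 10.09 in POR-null control and 10.50, 10.48 and 10.68 in POR-null quercetin arrays. POR-null control array 3 lay among the wild-type control arrays, and the other arrays outside that group lay above it. The genotype difference averaged over the diets was 0.27 ± 0.08 (adjusted p = 0.0697). Slc25a39, a glutathione importer, stood at 11.82, 11.80 and 11.76 in wild-type control and 12.01, 12.04 and 11.98 in POR-null control arrays, with no overlap and a difference of 0.22 ± 0.07 (adjusted p = 0.14). Its 2 other probe sets lay at 0.06 each on the control diet. Slc25a44, a branched-chain amino acid carrier, differed by 0.22 ± 0.07 (adjusted p = 0.065) and Slc25a38, a glycine carrier needed for heme synthesis, by -0.23 ± 0.07 (adjusted p = 0.0575), both averaged over the diets. The 2 other probe sets of Slc25a44 lay at -0.06 ± 0.09 and -0.03 ± 0.08. The glutamate carrier Slc25a22 (-0.02 ± 0.07) and the aspartate-glutamate carrier Slc25a13, or citrin (-0.04 ± 0.08), lay near 0. Slc25a2, the second ornithine carrier, and Slc25a29, a carrier of basic amino acids, differed by -0.13 ± 0.09 and -0.06 ± 0.07.

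Slc25a20, which passes acylcarnitines into the matrix in exchange for carnitine, measured 9.45, 9.58 and 9.36 in wild-type control and 9.60, 9.62 and 9.67 in POR-null control arrays. With quercetin it measured 9.46, 9.43 and 9.59 in wild type and 9.88, 9.61 and 9.72 in POR-null. The genotypes did not overlap on either diet, and the difference averaged over the diets was 0.21 ± 0.06 (adjusted p = 0.0674). Its second probe set gave 0.12 on the control diet and 0.20 on the quercetin diet.

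The ADP/ATP exchangers and phosphate carriers held 0 of 6 genes that passed for genotype. Slc25a5, an ADP/ATP exchanger found in most tissues, differed by 0.17 ± 0.07 averaged over the diets (adjusted p = 0.142) by its representative probe set. Of its 8 probe sets, all above 0, 3 passed, with differences of 0.27, 0.29 and 0.55. Slc25a4, the exchanger of muscle and heart, differed by 0.14 ± 0.12. The list mean of 7 striated muscle markers, whose part in this value was not tested, ranged over 5.52 to 6.03, 5.26 to 5.66, 5.10 to 5.70 and 5.21 to 5.46 in the wild-type control, wild-type quercetin, POR-null control and POR-null quercetin arrays. The phosphate carrier Slc25a3 differed by 0.09 ± 0.06. The calcium-regulated ATP-Mg/phosphate carriers Slc25a23, Slc25a24 and Slc25a25 differed by -0.20 ± 0.10, -0.04 ± 0.10 and -0.24 ± 0.12.

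Of carriers of cofactors and nucleotides 0 of 6 passed for genotype. Slc25a33, a pyrimidine nucleotide carrier, measured 7.81, 7.34 and 7.57 in wild-type control, 7.19, 7.31 and 7.11 in wild-type quercetin, 6.62, 7.22 and 7.38 in POR-null control and 6.88, 6.68 and 7.16 in POR-null quercetin arrays. The wild-type control arrays held the highest value and the POR-null control arrays the lowest, and the genotypes overlapped on both diets; averaged, the difference was -0.40 ± 0.13 (adjusted p = 0.0685). The coenzyme A carrier Slc25a42 differed by 0.17 ± 0.06 (adjusted p = 0.0779), with no overlap between genotypes on either diet. The peroxisomal carrier Slc25a17 differed by -0.20 ± 0.08 (adjusted p = 0.171). The NAD carrier Slc25a51 (0.11 ± 0.16), the S-adenosylmethionine carrier Slc25a26 (0.04 ± 0.08) and the pyrimidine nucleotide carrier Slc25a36 (0.01 ± 0.09) lay within 0.12 of 0. Slc25a51 spread widely within groups, from 8.54 to 9.51 in wild-type control arrays and from 8.92 to 9.73 in POR-null control arrays.

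The mitoferrins Slc25a28 and Slc25a37, which carry iron into the matrix, differed by 0.04 ± 0.07 and 0.01 ± 0.09. Slc25a14, the other uncoupling protein-like carrier measured, differed by -0.08 ± 0.08. Among carriers with no settled substrate, Slc25a35 (0.03 ± 0.07), the outer membrane protein Slc25a46 (-0.02 ± 0.08), Slc25a48 (-0.11 ± 0.07) and Slc25a53 (-0.11 ± 0.10) did not pass.

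Quercetin moved 0 of 33 carriers past the threshold by limma in wild type, in POR-null or averaged over the genotypes, where 0% of all genes passed in each. Without wild-type control array 1, 151 of all 22626 probe sets passed in wild type and 24 averaged over the genotypes, with 0 carriers among them, and without POR-null control array 1 it was 4 in POR-null. An unadjusted p under 0.05 was found for 3 carriers in wild type, 4 in POR-null and 5 on average, against 8.67%, 6.85% and 9.66% of all genes. Groups did not overlap for 7 carriers in wild type and 8 in POR-null, against 11.9% and 14.5% of all genes. The 95% interval of a difference, before any adjustment, had a median width of ±0.24 in either genotype. The medians over the carriers were 0.02 and -0.0023, beside -0.0047 and -0.0050 over all genes. The contrasts in wild type and in POR-null share no arrays, and their differences correlated at r = 0.46 (rho = 0.35) over the 33 genes, with the same sign for 23, beside r = 0.13 over all genes.

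In wild type the lowest p belonged to Slc25a30 (above), Slc25a15 and Slc25a13. Slc25a15 differed by 0.37 ± 0.12 (adjusted p = 0.436), with all quercetin arrays above the control arrays, and its second probe set by 0.51 ± 0.11 (adjusted p = 0.266). Slc25a13, which supplies aspartate to the cytosol for the urea cycle, measured 10.12, 9.87 and 9.90 in control and 10.16, 10.17 and 10.43 in quercetin arrays. The groups did not overlap, with wild-type control array 1 just under the quercetin arrays, and the difference was 0.29 ± 0.11 (adjusted p = 0.495). In POR-null the corresponding differences were 0.17 ± 0.12 for Slc25a15 and 0.07 ± 0.11 for Slc25a13. Of the 8 carriers of amino acids and glutathione, 6 lay above 0 in wild type (median 0.11) and 2 in POR-null (median -0.01). Over all genes 48.6% and 48.4% lay above 0. The count of 6 rests on the representative probe sets. The other probe sets of Slc25a29 and Slc25a39, both among the 6, had lower means with quercetin in wild type. Those of Slc25a44 went both ways.

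In POR-null the lowest p belonged to Slc25a25, Slc25a47 (above) and Slc25a23. Slc25a25 measured 8.94, 9.30 and 9.00 in POR-null control and 8.37, 8.30 and 8.41 in POR-null quercetin arrays, and 9.05, 9.48, 8.64 and 8.64, 9.14, 8.83 in wild-type control and quercetin arrays. The POR-null quercetin arrays lay below those of the 3 other groups. The difference was -0.72 ± 0.18 (adjusted p = 0.607), beside -0.19 ± 0.18 in wild type, and the test of the difference between responses gave -0.53 ± 0.25 (adjusted p = 0.807). Slc25a23 measured 8.81, 8.60 and 8.57 in POR-null control and 8.18, 8.16 and 8.51 in POR-null quercetin arrays, with no overlap and a difference of -0.38 ± 0.14 (adjusted p = 0.657). The third carrier of this ATP-Mg/phosphate group, Slc25a24, differed by -0.25 ± 0.15. The interaction was past the threshold for 0 of 33 carriers by limma, where 0% of all genes passed, and 2 carriers (Slc25a47 and Slc25a25) had an unadjusted p under 0.05, against 5.96% of all genes.

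**Figure D4:**
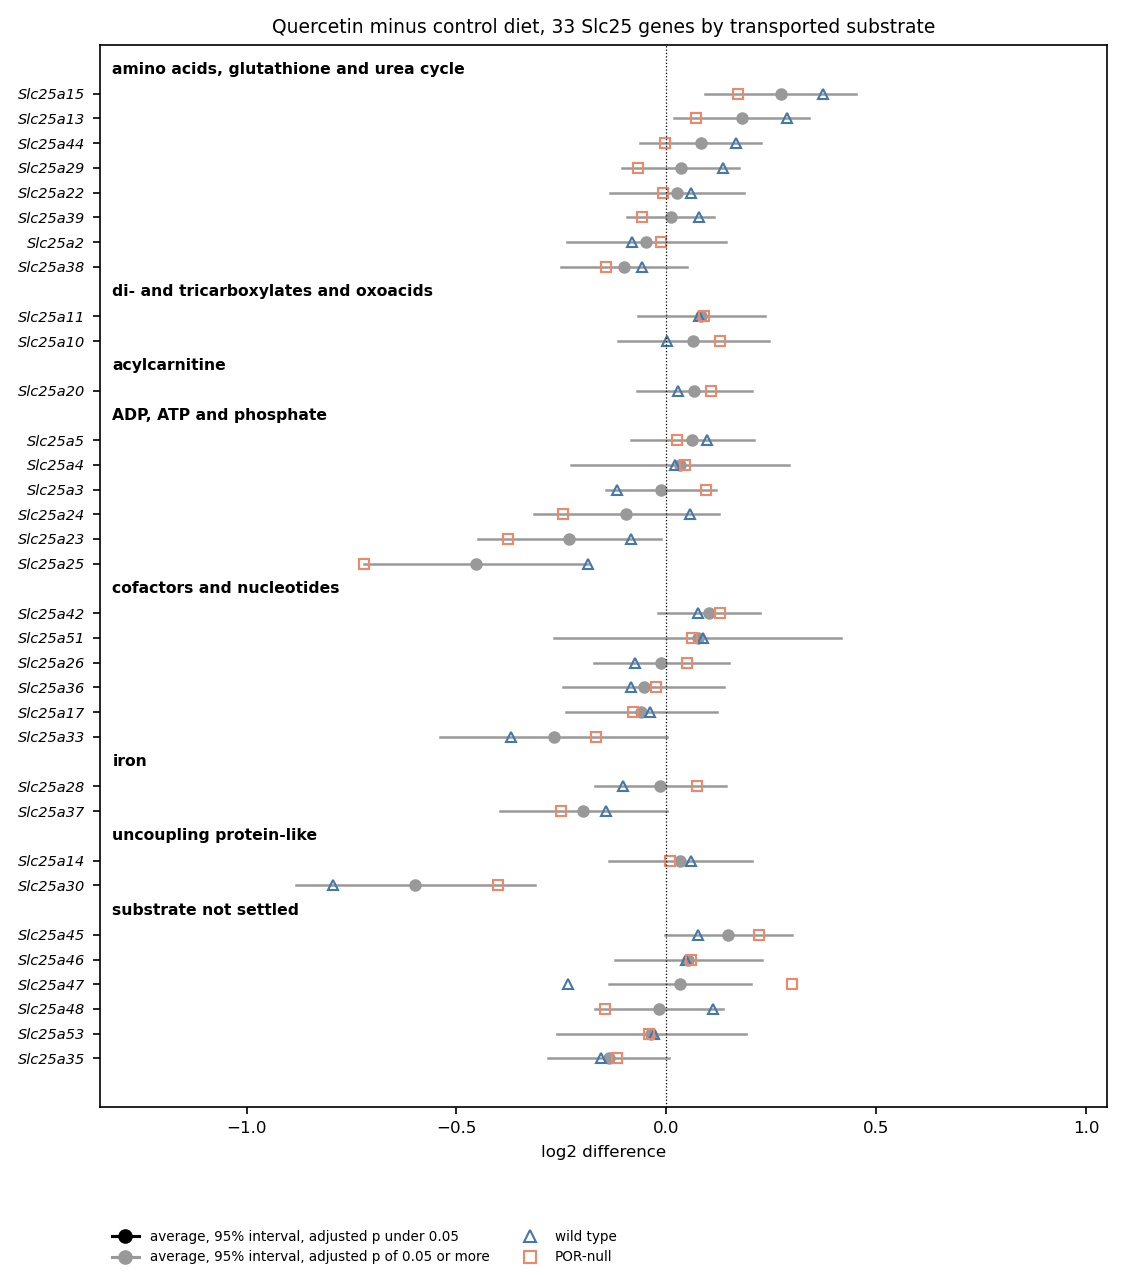
Quercetin minus control diet as a log2 difference (horizontal axis) for the 33 carriers, grouped by transported substrate; circles with bars give the average over genotypes with its 95% interval, triangles wild type and squares POR-null. No circle is black, since 0 genes passed; Slc25a30 and Slc25a25 lie farthest to the left, at averages of -0.60 and -0.45.

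Genes that act with the carriers were listed by role. Of 13 measured genes of the import pathway that brings carriers to the inner membrane, 3 rose and 0 fell in POR-null averaged over the diets (median 0.07): Tomm70a (0.44 ± 0.10, adjusted p = 0.014), the receptor that docks carrier precursors, Tomm40 (0.32 ± 0.07, adjusted p = 0.0167), the outer membrane pore, and Timm8a1 (0.43 ± 0.07, adjusted p = 0.00327), an intermembrane space chaperone. The shares of all genes called in this contrast were 5.08% higher and 2.86% lower. Of 19 measured enzymes that work with carriers, 4 rose and 2 fell (median 0.19), beside the same shares of all genes. Oat (ornithine aminotransferase) rose by 0.68 ± 0.06, Got1 (cytosolic aspartate aminotransferase) by 0.93 ± 0.13, Cpt1a (the carnitine palmitoyltransferase upstream of Slc25a20) by 0.51 ± 0.07 and Mdh2 (matrix malate dehydrogenase) by 0.41 ± 0.08, at adjusted p of 1.63e-05 to 0.00845. Glud1 (glutamate dehydrogenase) fell, with a difference of -0.41 ± 0.07 (adjusted p = 0.00196), and so did Pck1 (cytosolic PEP carboxykinase), with -0.36 ± 0.10 (adjusted p = 0.0343). Of 10 other mitochondrial membrane transporters measured, 0 passed (median 0.16), among them the pyruvate carrier subunit Mpc1 (0.18 ± 0.07) and Vdac1 (0.12 ± 0.06). Of carrier family genes named outside the Slc25a series, Mtch1, Mtch2, Ucp1 and Ucp3 were measured and 0 passed. The median of all genes in this contrast was -0.02, and these lists had 0 members passing for quercetin.

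Markers of other cells differed between the genotypes too. Of 7 macrophage and Kupffer cell markers, 2 rose averaged over the diets (Mpeg1 0.90 ± 0.14 and Cd5l 0.70 ± 0.19), against 5.08% of all genes called higher. The other 5 did not pass, and of these Marco (-0.43 ± 0.21) and Adgre1 (-0.05 ± 0.10) lay below 0. The list mean ranged over 7.04 to 7.34, 7.16 to 7.93, 7.42 to 7.75 and 7.55 to 7.72 in the wild-type control, wild-type quercetin, POR-null control and POR-null quercetin arrays. Of 5 adipose markers (median 0.03) Fabp4 rose by 1.35 ± 0.20, while Adipoq, made by adipocytes, differed by -0.19 ± 0.09 and did not pass. Of 7 endothelial and stellate markers Sparc rose, and of 6 hepatocyte markers Hnf4a fell (-0.31 ± 0.07) with all 6 below 0. Of 4 erythroid and 4 bile duct markers 0 passed. Markers of exocrine pancreas (7 genes) had a list mean of 10.16 in POR-null quercetin array 3, beside 6.49 to 9.02 in the 11 other arrays; without that array Slc25a47 differed by 0.71 between genotypes on the quercetin diet (adjusted p = 0.0134). In whole liver fewer cells of a type and less RNA per cell cannot be told apart, and the part of these markers in the carrier results was not tested.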

How the data were processed

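RNA of whole liver was measured on 12 arrays in 4 groups of 3, grouped by sample title; each array is 1 pool of 3 mice, so p-values measure the spread between pools. The authors deposited log2 expression values per probe set (2.57 to 14.2, array medians 5.93 to 5.99), used without further normalization. MAS5 and RMA are listed by the submitters' processing notes, with no role given; the background correction is not given in the sources used here. Of 22690 probe sets, 64 controls were left out. Symbols came from the platform annotation and were matched by gene identifier to RefSeq (20351 of 20380 probe sets with 1 symbol).

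limma 3.58.1 (R 4.3.3) fitted 1 mean per group over 22626 probe sets with an intensity trend, with 7 contrasts, 2-sided tests and Benjamini-Hochberg adjustment. The procedure was run on simulated data with normal noise drawn independently for each probe set and array. Such data hold no shifts shared by the probe sets of an array. The run therefore does not show how single arrays affect the counts. Genes named are those that passed, the 3 with the lowest p in each pairwise contrast and the interaction, those with the highest means, a named set of liver carriers and passing members of related lists; other carriers are given by substrate group. Members and lists were chosen with earlier results of these data known. Alternatives were a low-value filter, quantile normalization, other variance priors, array weights, pool number as a block, probe set means, 2-group fits and leaving out each array. Figures used matplotlib 3.10.9.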

Additional observations from a re-analysis of the deposited data

How the results depend on the processing

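The log2 differences of the carriers named by p were recomputed under every alternative, 301 values for 19 results, and 0 changed sign; 290 kept their side of the threshold, 3 lost and 8 gained a call. Averaged over diets, Slc25a10, Slc25a30, Slc25a45 and Slc25a47 passed under all 19 alternatives. The number of carriers passing there was 4, and 7 with the lowest 40% of probe sets left out (Slc25a38, Slc25a39 and Slc25a44 added). It was 6 with probe set means (Slc25a5 and Slc25a38 added) and 6 with array weights (Slc25a15 and Slc25a44 added). With quantile normalization it was 5 (Slc25a38 added). Without 1 array it ran from 4 to 7, the 7 being without POR-null control array 3, which added Slc25a11, Slc25a15 and Slc25a33. On the control diet the count was 0, and 1 (Slc25a30) with the low-value filter, with quantile normalization and with array weights; without 1 array it ran from 0 to 2, with 1 (Slc25a30) without wild-type control array 1 and 2 (Slc25a15 and Slc25a30) without POR-null control array 3. On the quercetin diet it was 2, and 4 in the fit of only the 2 groups compared (with Slc25a10 and Slc25a25 added); without 1 array it ran from 1 to 3. For quercetin and the interaction it was 0 under every alternative.

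Pool numbers are shared across groups, and deviations of same-numbered arrays from their group means correlated at -0.18 to 0.24. No range for differently numbered arrays was worked out beside it, so these values do not settle pairing. The numbers were not taken as pairs in the main fit. Of the 12 arrays 6 correlated best with their own number, which does not settle pairing because no expected count was worked out. With the pool number as a replicate block 4 carriers passed averaged over diets, 2 on the quercetin diet and 0 in the other contrasts. Quantile normalization moved the median of all genes by at most 0.02, but single carriers moved more. Averaged over diets, Slc25a10 went from 0.39 to 0.30, Slc25a45 from 0.44 to 0.38, Slc25a47 from 0.53 to 0.47 and Slc25a30 from -0.62 to -0.68. On the quercetin diet Slc25a45 went from 0.51 to 0.42 (limma adjusted p = 0.0447). On the control diet Slc25a39 went from 0.22 to 0.13 (limma adjusted p = 0.359). Few arrays per group limit what could be detected.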
